A study of Mus musculus with 18 samples.

Results

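Lgr5, Olfm4, Ascl2, Smoc2, Axin2, Rnf43, Znrf3, Cd44, Sox9 and Myc are genes of the intestinal stem cell and of its Wnt response. These 10 genes were taken by symbol from the 55487 genes counted in mouse ileum. The study asked what overexpression of Ppara, a lipid-sensing nuclear receptor, does in the intestinal epithelium of adult mice. RNA was sequenced from whole-thickness ileum, which holds epithelium together with muscle, connective tissue and immune cells, of 18 mice with 1 library per mouse.

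The 6 IEC-Ppara heterozygous and the 6 IEC-Ppara homozygous mice carried 1 or 2 copies of the CAG-Ppara,-EGFP allele in the Col1a1 locus, which Cre turns into its active orientation, together with Villin-CreERT2. The 6 control mice lacked Villin-CreERT2, and how many copies of the allele they carried is not given in the sources used here. Mice of all groups were C57BL/6J, were 8 to 13 weeks old, ate chow, and received tamoxifen at 100 mg/kg daily for 3 days before the ileum was taken 2 weeks later. Controls comprised 3 females and 3 males, and each IEC-Ppara group 2 females and 4 males. Villin drives the recombinase in the epithelium, the strain came from 1 clone, and the controls, littermates by the study's methods, lack the recombinase as well as the overexpression. Libraries held between 38528522 and 50376371 counts. Ppara itself, which checks the labels of controls against IEC-Ppara mice, stood at 38.1 ± 8.40 CPM (counts scaled so that every library has the same total; SD, n = 6) in controls, 141 ± 35.4 CPM in heterozygous and 216 ± 35.5 CPM in homozygous ileum. It rose in both IEC-Ppara groups, by 1.92 and 2.51 on the log2 scale (edgeR adjusted p = 8.43e-06 and 2.06e-07). The IEC-Ppara groups overlapped in Ppara, heterozygous 6 at 196 CPM being above homozygous 2 and 3, both at 184 CPM, so its level does not check heterozygous against homozygous labels. None of the 10 epithelial, 10 enterocyte, 10 Paneth cell or 8 goblet cell markers examined was at 0 in any library.

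Stem cells at the base of the intestinal crypt renew the epithelium. Wnt ligands, amplified by R-spondins that bind Lgr4 and Lgr5, stabilise beta-catenin, which acts with TCF/LEF factors in the nucleus to switch on target genes. Some targets, such as Axin2, Rnf43 and Znrf3, encode brakes on the same pathway, while others, such as Ascl2, Myc, Sox9 and Cd44, serve stem cell identity, growth and adhesion.

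Every one of the 10 genes was expressed in every library and passed the filter on low counts, so all of them were tested. Olfm4 showed the largest difference between homozygous and control ileum, being 25.9% lower in mean CPM, and Axin2 and Rnf43 were lower by 12.6% and 15.5%. Lgr5, the defining stem cell marker, differed by -2.34% with overlapping libraries. No gene of the 10 passed the threshold of adjusted p below 0.05 in edgeR's quasi-likelihood test with Benjamini-Hochberg adjustment over 12645 genes, beside 0.411% of all genes tested (0.372% higher and 0.0395% lower). At an unadjusted p below 0.05, 3 of the 10 were lower and none was higher, against 8.06% of all genes (4.03% lower and 4.03% higher). By DESeq2, which called 1.08% of all genes in this comparison (0.791% higher and 0.285% lower), 1 of the 10, Olfm4, passed the adjusted threshold, and by limma-voom, which called 0.403% (0.372% higher and 0.0316% lower), none did. In no gene of the 10 did the homozygous libraries separate completely from the controls, which happened for 0.854% of all genes. Over the 10 genes the median log2 fold change was -0.08, with 8 of 10 below zero. Over all genes the median was -0.00, with 6562 of 12645 below zero. The count of the 10 genes below zero was the same with DESeq2 size factors and with plain library sizes.

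In heterozygous against control ileum, none of the 10 genes passed the adjusted threshold in edgeR, DESeq2 or limma-voom (0.293%, 0.675% and 0.269% of all genes, the DESeq2 share being 0.584% higher and 0.0905% lower and the others all higher) and none had an unadjusted p below 0.05 (5.29% of all genes, 2.53% lower and 2.76% higher). Their ranges all overlapped (0.467% of all genes did not), and the median log2 fold change was -0.07 with 7 of 10 below zero. Over all genes the median was -0.01, with 6642 of 12645 below zero. Between homozygous and heterozygous ileum, again none of the 10 passed the adjusted threshold in any of these tools (0.00791%, 0.0712% and 0.00791% of all genes, of which 0.0633% were lower in DESeq2), while Olfm4 and Rnf43 were lower at an unadjusted p below 0.05 (3.72% of all genes were) and Smoc2 was higher (3.89%), 3 of 10 beside 7.61% of all genes. The groups overlapped for all 10 genes here too (0.269% of all genes did not). The comparisons share libraries and are given side by side, not as separate evidence.

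**Figure D1:**
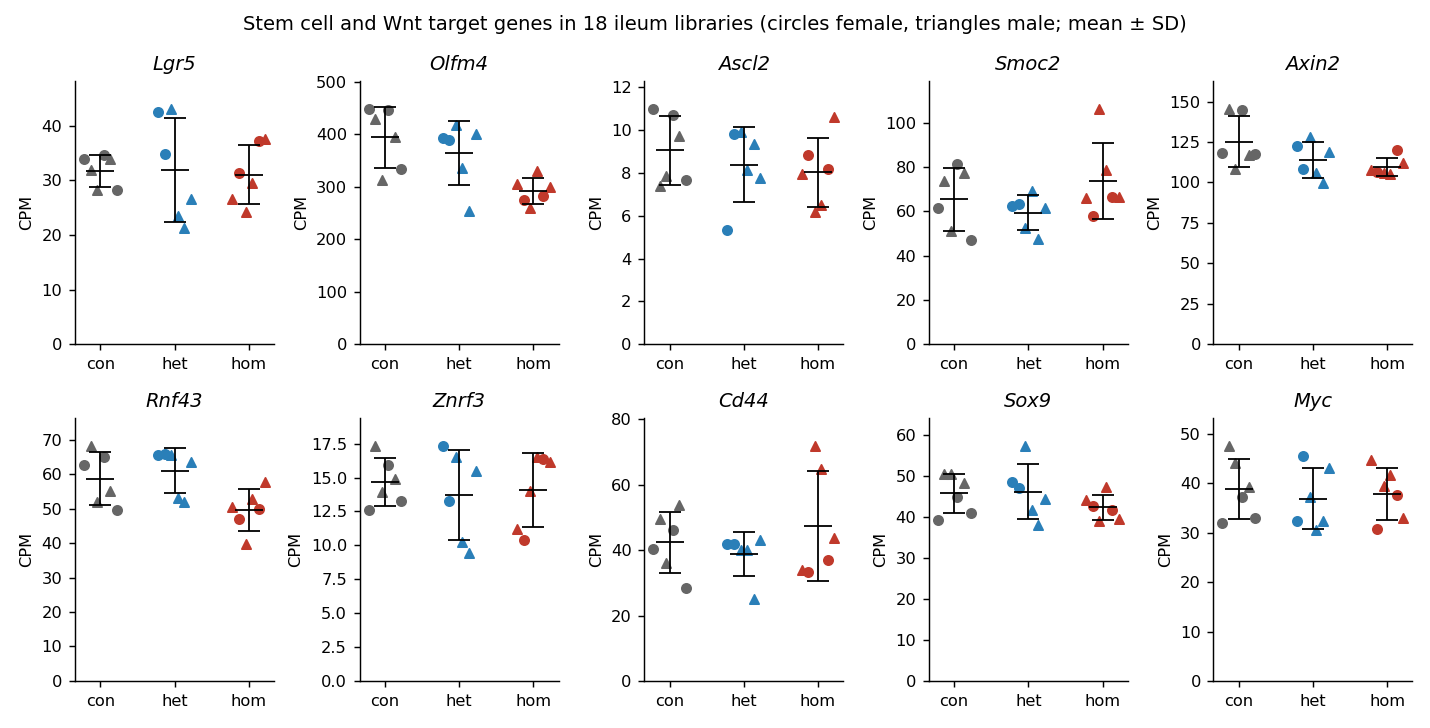
Depth-scaled counts (CPM) of each of the 10 genes in every library by genotype (con, control; het, heterozygous; hom, homozygous), with circles for females, triangles for males and bars for mean ± SD of 6 libraries. The homozygous Olfm4 values lie between 260 and 330 CPM and 5 of 6 sit below the lowest control, while the Lgr5 groups overlap.

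The 10 genes differed widely in level per exon length (FPKM, which divides the depth-scaled count by the exon length counted for the gene). By median FPKM over 18 libraries, Olfm4 was first at 113, followed by Axin2 at 20.8, Myc at 13.8, Sox9 at 10.7 and Smoc2 at 9.32. Rnf43 at 8.24, Cd44 at 6.06, Ascl2 at 5.02, Lgr5 at 3.08 and Znrf3 at 1.83 FPKM came next. Only the steps from Olfm4 to Axin2 and from Axin2 to Myc were clear of the spread between libraries, since from Myc downward the range of each gene overlapped that of the next in order. Within single libraries Lgr5 exceeded Znrf3 in 18 of 18, although their ranges overlapped, and Ascl2 exceeded Lgr5 in 17 of 18. Smoc2 and Rnf43 were the least separated neighbours, with Smoc2 above Rnf43 in 10 of 18.

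**Figure D2:**
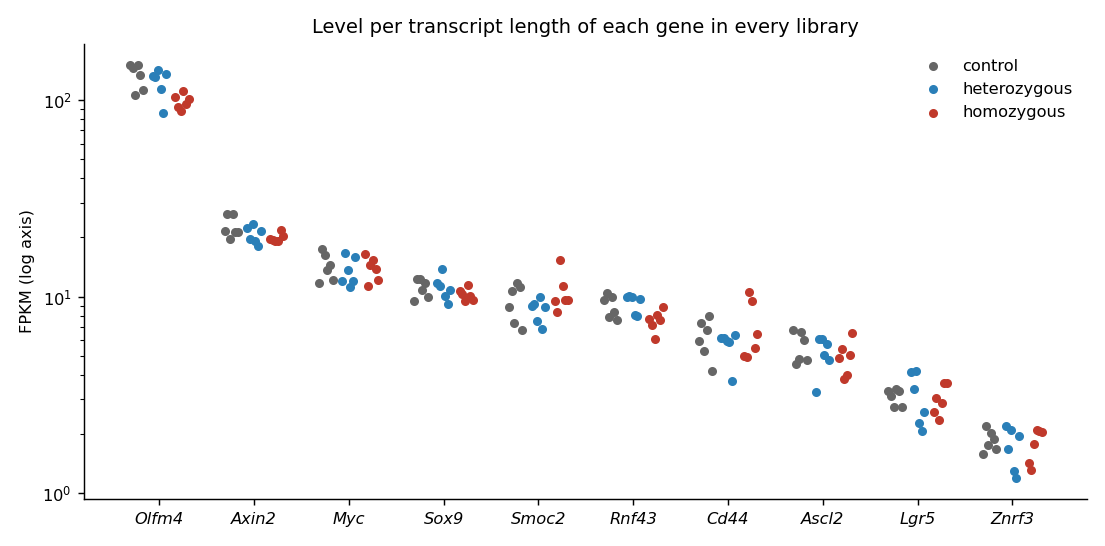
Level per exon length (FPKM, log axis) of each gene in each library, ordered by median and coloured by genotype. Olfm4 stands apart near 113 FPKM and Znrf3 is lowest near 1.83 FPKM.

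Among the stem cell markers, Lgr5 (ENSMUSG00000020140, chr10:115450311-115587780, minus strand, GRCm38) encodes the R-spondin receptor that marks crypt base columnar cells. Its lowest, median and highest CPM were 28.2, 32.9 and 34.6 in controls, 21.3, 30.7 and 43.0 in heterozygous and 24.2, 30.4 and 37.5 in homozygous ileum. The group means were nearly level, at 31.8 ± 2.93, 31.9 ± 9.53 and 31.0 ± 5.47 CPM (SD, n = 6), while the IEC-Ppara libraries were spread more widely than the controls. Of the heterozygous libraries 3 lay above every control and 3 below every control. The edgeR log2 fold change of homozygous against control was -0.02 (SE 0.16, 95% interval -0.36 to 0.31, adjusted p = 0.986), and that of heterozygous against control was 0.04 (SE 0.16, 95% interval -0.30 to 0.37, adjusted p = 1.00). The sign of both values changed under other settings, and the intervals leave room for differences of either direction.

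Olfm4 (ENSMUSG00000022026, chr14:79984081-80023139, plus strand) encodes a secreted glycoprotein that is abundant in crypt base stem cells of the small intestine. The lowest, median and highest CPM were 313, 412 and 448 in controls, 254, 391 and 419 in heterozygous and 260, 291 and 330 in homozygous ileum. All 6 homozygous libraries were below the control median and 5 of 6 were below every control, with homozygous 4 the exception. Means were 394 ± 58.7, 365 ± 61.0 and 292 ± 25.1 CPM (SD, n = 6), so the homozygous group was the lowest and also the least variable.

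In edgeR, the log2 fold change of Olfm4 in homozygous against control ileum was -0.42 (SE 0.10, 95% interval -0.64 to -0.21), with an unadjusted p of 0.000551 and an adjusted p of 0.0942, the gene ranking 74 of 12645 by p. The exact permutation test of mean CPM, 1 of 30 such tests whose p-values are printed unadjusted, gave p = 0.00433, where the smallest two-sided p that 6 against 6 libraries allow is 0.00216. DESeq2 placed the same comparison past the threshold, with a log2 fold change of -0.42 and an adjusted p of 0.00762. Olfm4 is among the genes that the study itself listed from these libraries, so that choice is not independent of the values here. Against heterozygous ileum the homozygous value was lower by a log2 fold change of -0.34 (SE 0.10, edgeR adjusted p = 0.499; exact permutation p = 0.026), and heterozygous against control it was -0.08 (95% interval -0.29 to 0.13, adjusted p = 1.00).

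In the 18 fits that dropped 1 library each, the Olfm4 value of homozygous against control lay between -0.47 and -0.38. The edgeR adjusted p ran from 0.0382 without heterozygous 5 to 0.241 without homozygous 3, the former passing the threshold. In whole tissue, fewer cells of a type and less RNA per cell cannot be told apart. Markers of other cells differed between the same groups, with no gene of these lists past the adjusted threshold of edgeR. In homozygous against control ileum, 14 of 15 cell division genes and 9 of 10 Paneth cell genes had log2 fold changes below zero, with medians of -0.14 and -0.16. All 11 tested B cell genes were lower, each at an edgeR unadjusted p below 0.05, with a median of -3.03. All 10 smooth muscle genes were higher, none of them at that p, with a median of 0.57. At that p, 1 cell division gene and 1 Paneth cell gene were lower, beside 4.03% of all genes lower and 4.03% higher. CPM summed over all 12 B cell markers ran from 19.9 to 694 in controls, 16.7 to 390 in heterozygous and 14.3 to 111 in homozygous libraries, with Cxcr5 at 0 in at least 1 library. Its medians were 23.98, 22.9 and 17.3 CPM, and the highest sums were those of control 2 (694 CPM) and control 3 (551 CPM). Summed smooth muscle marker CPM ran from 505 to 5755, from 637 to 4202 and from 3905 to 9099, with no marker at 0. The Olfm4 value was -0.43 with the B cell score as a covariate and -0.43 with the smooth muscle score. It was -0.48 without the 4 libraries high in B cell markers (control 2, control 3, heterozygous 2 and homozygous 1) and -0.41 without the 3 libraries low or high in smooth muscle markers (control 6, heterozygous 3 and homozygous 3), both sets being chosen after seeing the data. The part of the Paneth cell and cell division genes in the Olfm4 result was not tested.

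The 250 bases before the RefSeq transcript start of Olfm4 (GRCm38.p6, chr14:80000052-80000301, plus strand) are shown because this gene differed most, with the letters TATAA in capitals. They lie within the gene span given above, downstream of its first base.
Olfm4: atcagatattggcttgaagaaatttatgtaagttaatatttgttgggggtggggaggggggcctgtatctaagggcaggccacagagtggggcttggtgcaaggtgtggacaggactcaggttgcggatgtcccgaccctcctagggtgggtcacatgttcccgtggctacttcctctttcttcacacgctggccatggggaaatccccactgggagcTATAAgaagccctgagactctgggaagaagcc
TATAA begins 32 bases before the start and was searched on both strands, where 24.9% of 32851 mouse promoter windows of 300 bases hold it. Among the windows of 5 of the 10 genes that the RefSeq table lists (6 windows), only that of Olfm4 held it. The TCF/LEF letters CTTTGAT and CTTTGAA, searched on both strands, occur in 3.73% and 5.14% of all windows and in none of these 6, and the RBPJ letters GTGGGAA occur in 6.38% of all windows and in none of these. A missing match says only that these letters are not in the window.

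Ascl2 (ENSMUSG00000009248, chr7:142966829-142969264, minus strand), a transcription factor that Wnt switches on in stem cells, was the lowest of the 10 in CPM. Its lowest, median and highest CPM were 7.38, 8.78 and 11.0 in controls, 5.34, 8.74 and 9.91 in heterozygous and 6.16, 8.04 and 10.6 in homozygous ileum, and the groups overlapped throughout. The log2 fold change of homozygous against control was -0.16 (SE 0.17, 95% interval -0.51 to 0.19, edgeR adjusted p = 0.847), and that of heterozygous against control was -0.08 (95% interval -0.43 to 0.27).

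Smoc2 (ENSMUSG00000023886, chr17:14279506-14404790, plus strand) encodes a matricellular protein that is listed among stem cell signature genes. Its lowest, median and highest CPM were 47.1, 67.7 and 81.3 in controls, 47.5, 62.0 and 69.4 in heterozygous and 57.8, 66.6 and 106 in homozygous ileum. Homozygous 3, at 106 CPM, stood above every control, and the other homozygous libraries lay inside the control range. Homozygous against heterozygous ileum, the log2 fold change was 0.28 (SE 0.13, 95% interval 0.01 to 0.56), with an edgeR unadjusted p of 0.0463 and an adjusted p of 0.642, and the exact permutation p was 0.0758. Without homozygous 3 this value was 0.16, and with the smooth muscle score as a covariate it was 0.09. Against controls the homozygous value was 0.18 (95% interval -0.10 to 0.45), which was 0.06 without homozygous 3 and -0.00 without the 3 libraries low or high in smooth muscle markers. Heterozygous against control it was -0.10 (95% interval -0.38 to 0.17).

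**Figure D3:**
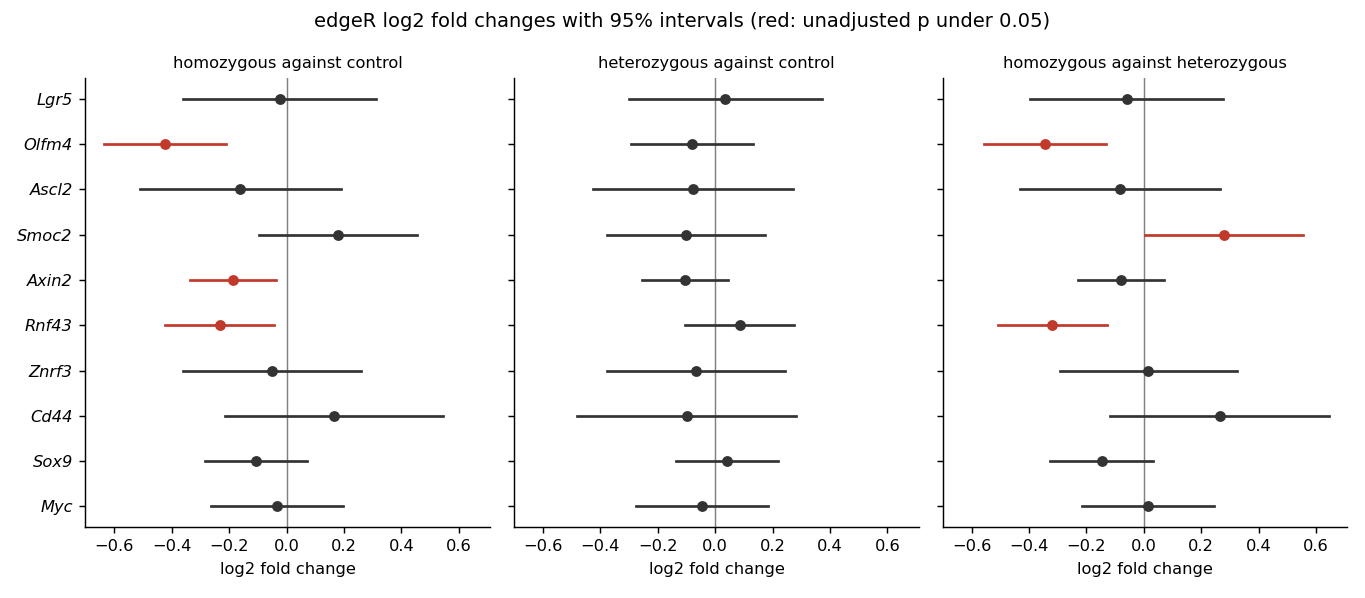
Log2 fold changes (points) with 95% intervals (lines) of the 10 genes from the edgeR fit in the 3 comparisons of genotypes, in red where the unadjusted p was below 0.05. Olfm4, Axin2 and Rnf43 lie below zero in homozygous against control, and every interval in heterozygous against control spans zero.

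Of the Wnt feedback genes, Axin2 (ENSMUSG00000000142, chr11:108920349-108950783, plus strand) encodes a scaffold of the complex that degrades beta-catenin and is a standard readout of Wnt activity. Lowest, median and highest CPM were 108, 118 and 145 in controls, 99.9, 113 and 128 in heterozygous and 105, 107 and 120 in homozygous ileum. Controls 2 and 4, both at 145 CPM, were above all IEC-Ppara libraries, and 4 of 6 homozygous libraries lay below every control. Means fell from control through heterozygous to homozygous ileum, at 125 ± 15.8, 114 ± 11.0 and 110 ± 5.58 CPM (SD, n = 6), although neighbouring groups overlapped. The log2 fold change of homozygous against control was -0.19 (SE 0.07, 95% interval -0.33 to -0.04), with an edgeR unadjusted p of 0.0175, an adjusted p of 0.507 and an exact permutation p of 0.0325. The unadjusted p was below 0.05 in 17 of 18 fits that left out 1 library, ranging from 0.00832 to 0.0501. Across the 17 other alternatives run it was below 0.05 in 16, with a highest value of 0.053. Heterozygous against control, the log2 fold change was -0.11 (95% interval -0.25 to 0.04).

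The 250 bases before the RefSeq start of Axin2 (GRCm38.p6, chr11:108920099-108920348, plus strand) are printed as those of the gene next to Olfm4 by unadjusted p in homozygous against control ileum. They were not chosen for a change that passed the adjusted threshold.
Axin2: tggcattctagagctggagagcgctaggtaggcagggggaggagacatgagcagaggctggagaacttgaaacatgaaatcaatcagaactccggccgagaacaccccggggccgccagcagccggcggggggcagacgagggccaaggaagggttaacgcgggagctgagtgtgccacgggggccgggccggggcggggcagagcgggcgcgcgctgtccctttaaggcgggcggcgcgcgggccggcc
The 300-base Axin2 window holds 70.0% G and C and 31 CpG dinucleotides, and that of Olfm4 holds 52.3% and 5. Of all windows, 89.4% have fewer CpG dinucleotides than Axin2 and 38.0% have fewer than Olfm4. Rnf43, which follows by unadjusted p, has 2 windows with 46.7% and 44.3% G and C and with 10 and 3 CpG dinucleotides.

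Rnf43 (ENSMUSG00000034177, chr11:87662722-87735539, plus strand) encodes a ubiquitin ligase that removes Frizzled receptors from the cell surface. Lowest, median and highest CPM were 49.6, 58.9 and 68.2 in controls, 52.1, 64.6 and 65.9 in heterozygous and 39.7, 50.2 and 57.8 in homozygous ileum. All 6 homozygous libraries were below both the control median and the heterozygous median, 2 were below every control and 4 were below every heterozygous library. Heterozygous ileum did not lie between the other groups, since its mean of 61.0 ± 6.57 CPM was above the control mean of 58.7 ± 7.63 and the homozygous mean of 49.6 ± 6.04 (SD, n = 6). The log2 fold change was -0.23 for homozygous against control (SE 0.09, 95% interval -0.42 to -0.04, edgeR unadjusted p = 0.0189, adjusted p = 0.516, exact permutation p = 0.0541 on CPM, 0.039 on TMM-scaled CPM and 0.052 on log2 CPM). It was -0.32 for homozygous against heterozygous (SE 0.09, edgeR unadjusted p = 0.0024, adjusted p = 0.475, exact permutation p = 0.0152), and the unadjusted p of both stayed below 0.05 in 18 of 18 fits that left out 1 library. Without the libraries high in B cell markers the homozygous against control value was -0.23, with an SE of 0.11 and an unadjusted p of 0.0641. Heterozygous against control, the value was 0.09 (95% interval -0.10 to 0.28).

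Znrf3 (ENSMUSG00000041961, chr11:5276324-5444847, minus strand) encodes the close relative of Rnf43. Its lowest, median and highest CPM were 12.6, 14.4 and 17.3 in controls, 9.41, 14.4 and 17.3 in heterozygous and 10.4, 15.1 and 16.5 in homozygous ileum. The log2 fold change of homozygous against control was -0.05 (SE 0.15, 95% interval -0.36 to 0.26, edgeR adjusted p = 0.963), and that of heterozygous against control was -0.07 (95% interval -0.38 to 0.24). That interval holds the Rnf43 value, and a difference between both genes was not tested.

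Cd44, Sox9 and Myc are Wnt targets, of which many other cells of the gut wall also express Cd44 and Myc. Cd44 (ENSMUSG00000005087, chr2:102811141-102901665, minus strand), a receptor for hyaluronan, had lowest, median and highest CPM of 28.5, 43.2 and 53.8 in controls, 25.1, 41.0 and 43.2 in heterozygous and 33.4, 40.3 and 71.9 in homozygous ileum. Homozygous 3 at 71.9 CPM and homozygous 4 at 64.7 CPM were above every control, whereas the homozygous median was below the control median. The log2 fold change of homozygous against control was 0.17 (SE 0.18, 95% interval -0.22 to 0.55, edgeR adjusted p = 0.862), and it was 0.02 without homozygous 3 and -0.05 without the 3 libraries low or high in smooth muscle markers. Heterozygous against control it was -0.10 (95% interval -0.48 to 0.28).

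Sox9 (ENSMUSG00000000567, chr11:112782224-112787760, plus strand), a transcription factor of crypt progenitors and Paneth cells, had means of 45.8 ± 4.84, 46.3 ± 6.65 and 42.4 ± 3.05 CPM (SD, n = 6) in control, heterozygous and homozygous ileum. The lowest, median and highest CPM were 39.4, 46.6 and 50.6 in controls, 38.1, 45.8 and 57.4 in heterozygous and 39.2, 42.2 and 47.3 in homozygous ileum, and the groups overlapped. The log2 fold change of homozygous against control was -0.11 (95% interval -0.28 to 0.07, edgeR adjusted p = 0.781), and that of heterozygous against control was 0.04 (95% interval -0.14 to 0.22). Myc (ENSMUSG00000022346, chr15:61985391-61990374, plus strand), a driver of growth and division, had means of 38.8 ± 6.12, 36.9 ± 6.19 and 37.9 ± 5.22 CPM in the same order. Its lowest, median and highest CPM were 32.0, 38.2 and 47.6, then 30.5, 34.8 and 45.5, then 30.8, 38.5 and 44.7, and the groups overlapped. Its log2 fold change of homozygous against control was -0.03 (95% interval -0.26 to 0.20, edgeR adjusted p = 0.970), and it was above zero in 3 of 18 fits that left out 1 library. Heterozygous against control it was -0.05 (95% interval -0.28 to 0.18).

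Heterozygous 5 was the lowest of its group in 8 of 10 genes, all but Ascl2 and Myc, and heterozygous 3 was the highest in 5. Homozygous 3 was the lowest of its group for Lgr5, Olfm4, Ascl2, Rnf43 and Sox9 and the highest for Smoc2 and Cd44. Heterozygous 5 also had the lowest summed cell division markers of its group (505 CPM) and the lowest fibroblast markers (1146 CPM), and the highest epithelial (16769 CPM) and enterocyte (26642 CPM) markers. It was the lowest of its group for the Paneth cell (14863 CPM), B cell (16.7 CPM), T cell (25.9 CPM) and myeloid (555 CPM) markers. Homozygous 3 had the highest smooth muscle (9099 CPM), fibroblast (4536 CPM) and myeloid (1595 CPM) markers of its group. It had the lowest epithelial (12764 CPM), enterocyte (19851 CPM), Paneth cell (9707 CPM), goblet cell (16756 CPM) and cell division (560.1 CPM) markers. Their part in the gene values was not tested.

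Across the 18 libraries, 100 pairs of the 10 genes with 10 marker lists were compared on the log2 CPM scale, and 10 pairs had a permutation p below 0.05 after Benjamini-Hochberg adjustment over the 100. These pairs involved Smoc2, Cd44, Znrf3 and Myc only. Smoc2 followed the fibroblast list most closely (Pearson r = 0.934, Spearman rho = 0.878, both with permutation p = 1e-05, the smallest that 100000 permutations can give; adjusted p = 0.000333 for r). Within controls, heterozygous and homozygous libraries its r was 0.936, 0.907 and 0.942, and it was 0.885 once the 2 libraries most distant from the list's median were removed. Smoc2 also followed the myeloid list (r = 0.868, rho = 0.835, permutation p = 1e-05 for both) and the smooth muscle list (r = 0.765, permutation p = 7e-05; rho = 0.895, permutation p = 1e-05), with r = 0.780 and 0.883 without those libraries. It ran against the epithelial list (r = -0.655, permutation p = 0.00298, adjusted 0.0426; rho = -0.488, permutation p = 0.042), a relation with r = -0.423 without the 2 farthest libraries. It also ran against the enterocyte list (r = -0.633, permutation p = 0.00454, adjusted 0.0454; rho = -0.680, permutation p = 0.0024), with r = -0.508 without them.

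Cd44 followed the myeloid list (r = 0.845, permutation p = 1e-05, adjusted 0.000333; rho = 0.779, permutation p = 0.00031) and the fibroblast list (r = 0.821, permutation p = 4e-05, adjusted 0.001; rho = 0.651, permutation p = 0.00387), with r = 0.677 and 0.699 without the 2 farthest libraries. It ran against the epithelial list (r = -0.635, permutation p = 0.00426, adjusted 0.0454; rho = -0.643, permutation p = 0.00457), with r = -0.429 without them. Within the heterozygous group the myeloid relation of Cd44 was r = 0.419, against 0.816 in controls and 0.979 in homozygous libraries. Myc followed the B cell list (r = 0.719, permutation p = 7e-05, adjusted 0.00117; rho = 0.571, permutation p = 0.0154), with r = 0.610 without the 2 farthest libraries and 0.876, 0.621 and 0.745 within the 3 groups. Znrf3 ran against the epithelial list (r = -0.650, permutation p = 0.00394, adjusted 0.0454; rho = -0.699, permutation p = 0.0018), with r = -0.776 without the 2 farthest libraries. For Lgr5, Olfm4, Ascl2, Axin2, Rnf43 and Sox9 no list passed the threshold, Rnf43 with the Paneth cell list coming nearest (r = 0.619, permutation p = 0.00634, adjusted 0.0576; rho = 0.337, permutation p = 0.173). With genotype means removed, 8 pairs passed, and those of Smoc2 and Cd44 with the epithelial list did not (adjusted permutation p = 0.08 for both). On TMM-scaled values 12 pairs passed, and that of Znrf3 with the epithelial list did not (r = -0.549, adjusted permutation p = 0.112). The part of these cell types in the values of the genes was not tested.

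**Figure D4:**
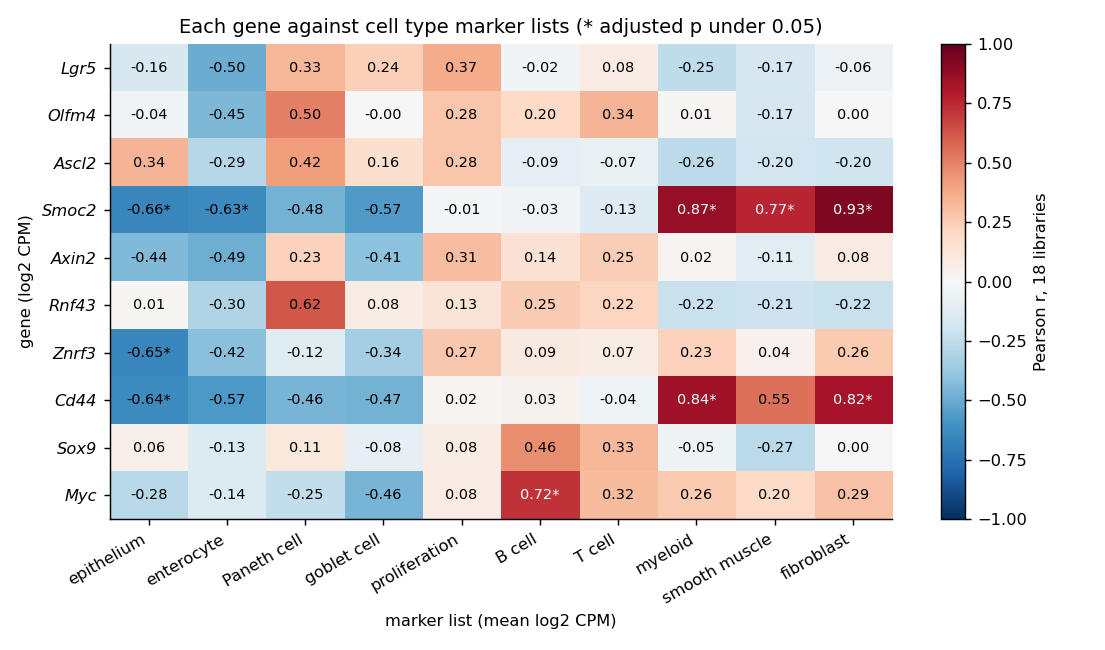
Pearson r over 18 libraries between the log2 CPM of each gene (rows) and the mean log2 CPM of each marker list (columns), with asterisks where the adjusted permutation p was below 0.05. Smoc2 and Cd44 share high values with the myeloid and fibroblast lists, up to 0.934, which the Lgr5, Olfm4 and Rnf43 rows do not.

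With genotype means removed, the 45 pairs among the 10 genes had a median r of 0.341 over 18 libraries, which share depth and tissue composition, and 16 pairs were above 0.5. Cd44 and Smoc2 were the closest pair (r = 0.872), followed by Rnf43 and Olfm4 (0.819), Rnf43 and Lgr5 (0.697), Znrf3 and Axin2 (0.684) and Rnf43 and Axin2 (0.677). Ascl2 and Cd44 had the lowest r, at -0.289. Among the protein-coding genes with the highest r to Lgr5 in all 18 libraries were Slc12a2 (0.920), Ppp1r9a (0.906), Samd5 (0.895) and Sall1 (0.888). Those nearest to Olfm4 were Dgkz (0.908), Mlxipl (0.884), Trim26 (0.860), Rnf43 (0.853) and Zfp598 (0.833). Slc12a2, the sodium-potassium-chloride cotransporter, was also on the list of other stem cell markers.

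Female and male mice were compared with genotype in the model. None of the 10 genes passed the adjusted threshold in edgeR, DESeq2 or limma-voom (0.0554%, 0.0633% and 0.0554% of all genes, being 0.0316% higher in males and 0.0237% lower in edgeR and limma-voom and 0.0316% in each direction in DESeq2), none had an unadjusted p below 0.05 (3.39% of all genes, 1.84% lower and 1.55% higher) and none had ranges that did not overlap (0.0633%). Lgr5 was nearest, with a median of 34.6 CPM in 7 females and 28.2 CPM in 11 males and a log2 fold change of male against female of -0.24 (SE 0.12, 95% interval -0.50 to 0.02, edgeR adjusted p = 0.998). The unadjusted p of Lgr5 was 0.0722 with all libraries and 0.00862 without the 3 libraries low or high in smooth muscle markers.

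The rest of the pathway was described by lists of genes by role, none of which held a gene past the adjusted threshold of edgeR in a comparison of genotypes. Of 15 tested other stem cell markers, 9 were above and 6 below zero in homozygous against control ileum, and their median log2 difference was 0.02. Clca3b, a gene of the calcium-activated chloride channel regulator family, had the lowest p there (392.1 ± 51.7 CPM in controls and 322 ± 61.7 in homozygous ileum, log2 fold change -0.28, edgeR unadjusted p = 0.039, adjusted p = 0.599). Lrig1 and Ephb2, a growth factor receptor regulator and an ephrin receptor that Wnt controls, had log2 fold changes of 0.15 and -0.18. All 4 genes used as reserve stem cell markers were below zero, and Tert, the telomerase subunit, stood at 4.90 ± 0.791 CPM in controls and 3.50 ± 0.486 in homozygous ileum (log2 fold change -0.48, edgeR unadjusted p = 0.00704, adjusted p = 0.376).

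Among 10 tested genes of Wnt ligands, R-spondins and their secretion, which include the secretion factors Porcn and Wls, 8 were above zero and none had an unadjusted p below 0.05, with a median of 0.15. Wnt3, the ligand of Paneth cells, was one of the exceptions (11.7 ± 0.973 CPM in controls and 9.95 ± 1.66 in homozygous ileum, log2 fold change -0.23, edgeR unadjusted p = 0.0563, adjusted p = 0.635). Wnt5a, a ligand of stromal cells, had a log2 fold change of 0.25 and Rspo3 one of 0.35. In the same comparison 10 of 10 fibroblast markers and 10 of 10 smooth muscle markers were above zero, with medians of 0.36 and 0.57. Summed fibroblast marker CPM ran from 1396 to 3783 in controls, 1146 to 2661 in heterozygous and 2048 to 4536 in homozygous libraries with no marker at 0. The part of these markers in the values of the ligands, receptors, inhibitors and BMP genes was not tested. Of 15 receptors and coreceptors, 9 were above and 6 below zero with a median of 0.17, and none had an unadjusted p below 0.05. Their values ran from -0.18 to 0.50, with Fzd1 at 0.28 and Fzd2 at 0.42. The 12 cytoplasmic transducers had a median of -0.02, and Dvl1, which relays the signal from Frizzled, was the single one with an unadjusted p below 0.05 (-0.13, edgeR unadjusted p = 0.0276, adjusted p = 0.571). Of 10 nuclear factors, Tcf7 had the lowest log2 fold change, with levels of 18.8 ± 10.0 CPM in controls, 12.9 ± 4.48 in heterozygous and 11.0 ± 0.864 in homozygous ileum (log2 fold change -0.76, edgeR unadjusted p = 0.00819, adjusted p = 0.397). Tcf7 is also a transcription factor of T cells, whose 5 tested markers were all below zero, with a median of -0.81. All 5 had an edgeR unadjusted p below 0.05, beside 4.03% of all genes that were lower at that p. Summed over all 10 T cell markers, the 5 untested ones included, levels ran from 36.3 to 105 CPM in controls, 25.9 to 72.9 in heterozygous and 28.5 to 38.7 in homozygous libraries with none at 0, and their part in the Tcf7 value was not tested.

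Wnt inhibitors, a list that holds secreted, membrane and intracellular proteins, had 7 of 9 genes above zero, with a median of 0.24. Dkk3 had a log2 fold change of 0.29 (edgeR unadjusted p = 0.0483, adjusted p = 0.616) and Sfrp5 one of -0.45 (edgeR unadjusted p = 0.0345, adjusted p = 0.587). Of 9 other Wnt targets, 7 were below zero in homozygous against control ileum, including Zfp703 (-0.19, edgeR unadjusted p = 0.0166, adjusted p = 0.492). The lowest value of this list, -0.76, was that of Tcf7, which was also counted among the nuclear factors. The part of T cells in it was not tested. Sp5, a target that represses other Wnt targets, stood in heterozygous ileum at 8.89 ± 1.74 CPM against 5.94 ± 1.42 in controls (log2 fold change 0.62, edgeR unadjusted p = 0.00225, adjusted p = 0.282), and stood at 7.22 ± 1.42 CPM in homozygous ileum.

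Notch and BMP signals also act in the crypt niche. In homozygous against control ileum, 8 of 11 Notch genes were below zero with a median of -0.01, Dll1 having the lowest p (40.9 ± 4.31 and 34.7 ± 2.94 CPM, log2 fold change -0.23, edgeR unadjusted p = 0.0299, adjusted p = 0.581). Of 13 BMP genes 12 were above zero, with a median of 0.12, and Id2, a BMP target, was the exception at -0.34 (edgeR unadjusted p = 0.0238, adjusted p = 0.551). Cell division genes were below zero in 14 of 15 in homozygous and in 15 of 15 in heterozygous ileum, where 8 had an unadjusted p below 0.05 (2.53% of all genes were lower at that p) and the median was -0.22, and none passed the adjusted threshold. In the same heterozygous comparison all 10 epithelial markers were above zero (median 0.09), while all 11 tested B cell markers (median -1.48), all 5 tested T cell markers (median -0.68, 3 with an unadjusted p below 0.05) and all 10 smooth muscle markers (median -0.19) were below zero. Summed epithelial marker CPM ran from 13210 to 16464 in controls and from 14306 to 16769 in heterozygous libraries with no marker at 0. The median sum was 15796 CPM in controls and 15229 CPM in heterozygous libraries, whereas the log2 fold changes come from the fit with TMM scaling. The part of these markers in the cell division values was not tested. Mcm3, a replication licensing factor, stood at 36.7 ± 3.80, 28.3 ± 3.87 and 31.7 ± 3.87 CPM in control, heterozygous and homozygous ileum, and Pcna at 59.5 ± 3.76, 53.4 ± 2.78 and 53.8 ± 2.97. Of the Paneth cell genes, Mptx2 stood at 214 ± 69.6 CPM in controls and 101.2 ± 32.6 in homozygous ileum (log2 fold change -1.08, edgeR unadjusted p = 0.0011, adjusted p = 0.142).

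**Figure D5:**
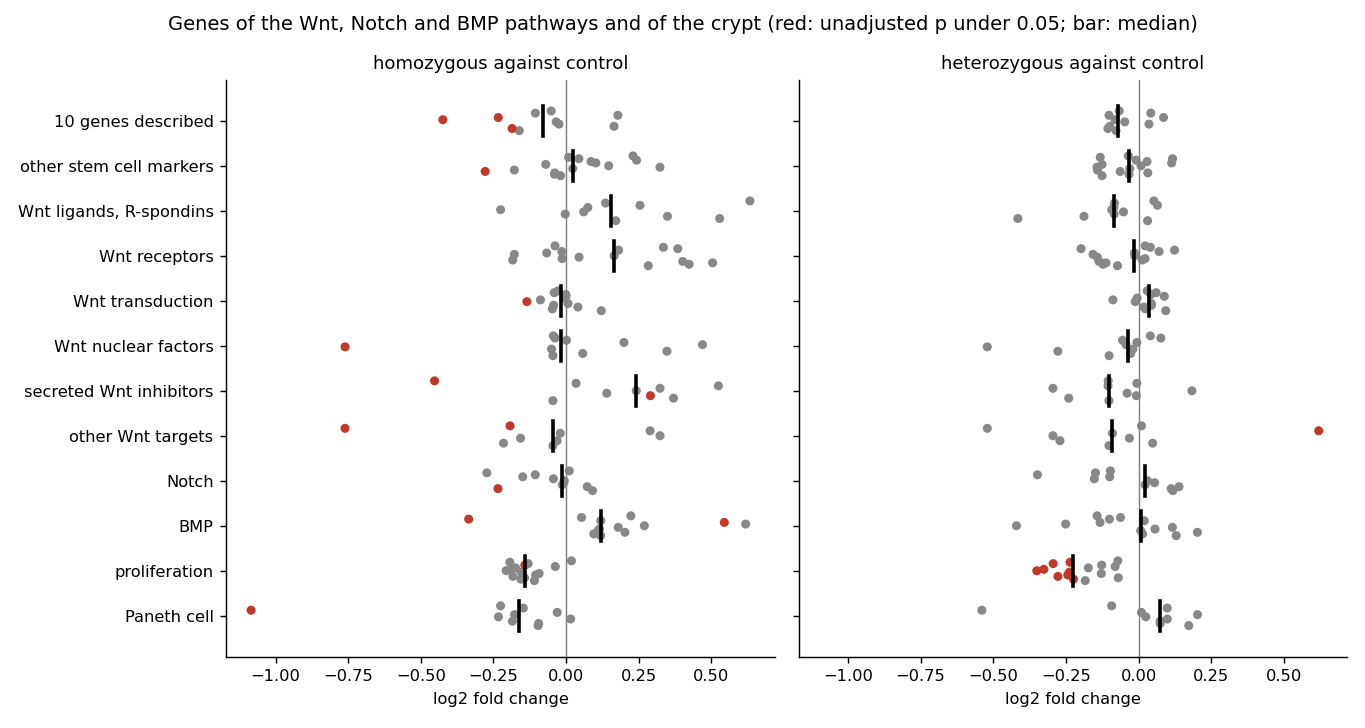
Log2 fold changes of every tested gene of each list (points, red where the unadjusted p was below 0.05) with the median of the list (bar), for homozygous and heterozygous against control ileum from the edgeR fit. Medians lie near zero for most lists, and the cell division genes of heterozygous ileum lie below zero in 15 of 15.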

How the data were processed

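Whole-thickness ileum of 18 mice, 6 per genotype and 1 library per mouse, was analysed, with groups taken from the sample labels. Whether counting used strand is not given in the sources used here. The authors aligned reads with STAR to GRCm38 and counted them on Ensembl genes with featureCounts, and the deposited counts are raw. The deposited CPM values equal counts over library totals (largest difference 4.73e-11), and the deposited log2 CPM are moderated by a prior count of unstated size. The deposited FPKM also divide by the exon length of each gene. The CPM table repeats 287 gene rows, which were dropped. Counts were tested with edgeR 4.0.16 (TMM, glmQLFit and glmQLFTest, all 18 libraries, no covariate) over 12645 protein-coding genes that exceeded 3 CPM in 4 or more libraries, with Benjamini-Hochberg adjustment and a threshold of 0.05. Intervals are 95%. Exact permutation tests (two-sided) compared mean CPM in 30 tests, which were repeated on TMM-scaled CPM and on log2 CPM. Their p-values are those on CPM unless another scale is named. Correlations were taken on log2 CPM (prior count 2) with 100000 permutations. Alternatives used DESeq2 1.42.0, limma 3.58.1, other scalings, filters, covariates and left-out libraries. The edgeR fit was tested on simulated data. The genes and lists were chosen with earlier results of these data known. Lists name their genes past the adjusted threshold and up to 4 with the lowest p in homozygous against control, and likeness takes the 5 genes with the highest r for Lgr5 and for Olfm4, of which 1 is not reported here. Of 13 other Wnt targets listed, 12 matched a gene symbol. No libraries were identical. At 38528522 to 50376371 counts per library, the 10 genes held from 253 to 21650 counts each. Promoters are from RefSeq (GRCm38.p6), where 5 of the 10 genes were matched by symbol to the table of windows used here; those of Lgr5, Smoc2, Znrf3, Sox9 and Myc were not analysed here.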

Additional observations from a re-analysis of the deposited data

Results flagged for a closer look

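Of 30 sets of 6 libraries (10 genes in 3 genotypes), 1 held a library far from the others by Dixon's criterion, which chance flags in about 1 of 20 sets. Cd44 stood at 25.1 CPM in heterozygous 5, against 40.0 CPM in the next lowest heterozygous library, a gap of 0.825 of the group's range.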

How the results depend on the processing

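For the 10 genes, the homozygous against control values of Olfm4, Ascl2, Axin2, Rnf43 and Sox9 kept their direction in every alternative run and in all 18 fits that left out 1 library. No gene of the 10 passed the adjusted threshold except Olfm4 in homozygous against control ileum, by DESeq2 (1 gene) and without heterozygous 5, so leaving out 1 library gave 0 to 1 genes. At an unadjusted p below 0.05, leaving out 1 library gave 2 to 3 of the 10 in homozygous against control (5.81% to 10.9% of all genes), 2 to 3 in homozygous against heterozygous (4.27% to 10.6%) and 0 to 1 in male against female (2.14% to 6.65%), where 1 (Lgr5) was found without the libraries low or high in smooth muscle markers (3.07%). Over all genes, homozygous against control gave 136 calls by DESeq2, 30 without the libraries high in B cell markers and 43 to 65 with 1 library left out. Heterozygous against control gave 82 by DESeq2, 23 with only the 12 libraries compared, 15 without the libraries high in B cell markers, 20 without those low or high in smooth muscle markers and 25 to 55 with 1 library left out. Homozygous against heterozygous gave 9 by DESeq2, 0 to 2 with 1 library left out, and 0 with DESeq2 size factors, no filter, at least 10 counts in every library, all biotypes, sex as covariate, only the 12 libraries, the B cell or smooth muscle score as covariate and both sets of libraries left out. Male against female gave 3 with at least 10 counts and 7 to 8 with 1 library left out. With the replicate number as a block, heterozygous against control gave 22 calls and homozygous against heterozygous 0. The numbers were not taken to pair the mice, because the correlation of deviations was above 0.1 in 9 of 18 same-numbered pairs (median 0.0546) and in 35 of 90 other pairs (median -0.0341), and the block changed no call of the 10 genes at the adjusted threshold. Some values changed sign, none of them past the adjusted threshold. In homozygous against control, Lgr5 was 0.0084 with sex and 0.036 with the smooth muscle score as covariate, and Myc was 0.080 with the B cell score. In heterozygous against control, Lgr5 was -0.0088 by limma-voom and -0.042 by limma on the deposited log2 CPM, Znrf3 0.018 and Cd44 0.0027 with the epithelial score, and Myc 0.032 with the B cell score. In homozygous against heterozygous, Lgr5 was 0.027 and Myc -0.0053 with the smooth muscle score, and Ascl2 was 0.030, Znrf3 -0.12 and Myc -0.0068 with the epithelial score. In male against female, Znrf3 was 0.0065 by limma-voom and 0.0081 with library size. Without the libraries low or high in smooth muscle markers, homozygous against control Lgr5 was 0.033, Smoc2 -0.0022 and Cd44 -0.053, heterozygous against control Lgr5 was -0.080 and Sox9 -0.039, and homozygous against heterozygous Lgr5 was 0.11 and Ascl2 0.043. Without the libraries high in B cell markers, homozygous against control Znrf3 was 0.052 and Myc 0.046, heterozygous against control Lgr5 was -0.021 and Myc 0.029, and male against female Ascl2 was 0.099 and Sox9 -0.0061. With 1 library left out, homozygous against control Lgr5 ran from -0.091 to 0.047, Znrf3 from -0.10 to 0.026 and Myc from -0.086 to 0.021. Heterozygous against control, Lgr5 ran from -0.066 to 0.13, Olfm4 from -0.13 to 0.0014, Ascl2 from -0.14 to 0.030, Znrf3 from -0.14 to 0.018, Sox9 from -0.027 to 0.087 and Myc from -0.10 to 0.010. Homozygous against heterozygous, Lgr5 ran from -0.14 to 0.046, Znrf3 from -0.060 to 0.10 and Myc from -0.039 to 0.069, and male against female Znrf3 ran from -0.076 to 0.086. The cause of these changes was not tested. Both sets of libraries left out were chosen after seeing the data. Ascl2 and Znrf3 rest on the fewest counts of the 10 genes.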
